A study of Mus musculus with 4 samples.

Results

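The 8 genes described here belong to the nuclear receptor superfamily and were followed in the primary auditory neurons of the mouse. They were the retinoid X receptors Rxra, Rxrb and Rxrg, the retinoic acid receptors Rara and Rarb, the thyroid hormone receptors Thra and Thrb, and the estrogen-related receptor Esrrg. The list held 8 of the 18143 genes in the count tables and was selected on measured values, the level of Rxrg in type IA neurons. All 8 receptors were found, and all 8 passed the filter on low counts. Because the choice rested on measured values, every value of Rxrg, and every difference between type IA and the other type I subtypes, is given as a description with no test.

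Nuclear receptors are transcription factors whose activity is set by small lipophilic ligands or by coregulator proteins. Retinoid X receptors (RXRs) are the shared partners of the family: they bind DNA as heterodimers with retinoic acid receptors, thyroid hormone receptors and other members. Retinoic acid receptors (RARs) are switched on by all-trans retinoic acid, and thyroid hormone receptors by triiodothyronine. The estrogen-related receptors (ERRs) have no known natural hormone and work with the coactivators of the PGC-1 family on genes of mitochondrial energy metabolism. In the cochlea, thyroid hormone acting through Thrb is required for the onset of hearing.

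The neurons came from 4 wild-type male CBA/CaJ mice aged 9 weeks, with no treatment given in the labels, and each mouse was captured as its own library by droplet sequencing of messenger RNA 3′ ends. The authors' annotation places the 6713 cells in 5 populations. Type I neurons innervate inner hair cells and were split into IA (2384 cells), IB (1625 cells) and IC (2104 cells). Type II neurons, which innervate outer hair cells, numbered 95, with 15 to 34 per mouse. A further 505 cells were called putative neurons, a class that the labels do not describe further. Unique molecular identifiers (UMIs), which count captured molecules, were summed per mouse and population into 20 sums of 131668 to 10156321 UMIs. Levels are UMIs of a gene scaled to a total of 1000000 UMIs per sum (CPM), given as mean ± SD over the 4 mice. The populations were labelled from these same cells, so a call below says only that a difference was steady over the mice.

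Most defining markers followed the type I and type II labels, while putative neurons showed the markers of several classes. Calb2 was highest in type IA (9866 CPM on average), Ttn in type IB (74.8 CPM), Lypd1 in type IC (2953 CPM) and Prph in type II (475 CPM). Among the exceptions, the type IA marker Cacna1b was highest in type II (24.0 CPM against 16.6 CPM in type IA), and the type IC marker Runx1 was nearly level between types IC (86.7 CPM) and IB (81.3 CPM). The labels also differed in satellite glia, the supporting cells around neuron bodies. The 5 listed satellite glia markers summed to 8519 ± 2040 CPM in type II and 8162 ± 427 CPM in putative neurons, and to between 1249 and 1353 CPM in each type I subtype. Most of each sum was Apoe, at 7365 CPM in type II and 7003 CPM in putative neurons. Kcnj10 was not raised, at 36.2 and 31.1 CPM there against 29.0 to 36.4 CPM in type I. The 5 Schwann cell markers were level, at 3295 and 3192 CPM against 3165 to 3553 CPM in type I. In putative neurons the 5 fibroblast markers summed to 376 ± 148 CPM, against 103 to 108 CPM in type I, and the 5 endothelial markers to 80.5 ± 28.3 CPM, against 40.9 to 45.3 CPM. The 5 supporting cell markers summed there to 162 ± 15.4 CPM, against 78.6 to 91.5 CPM in type I. Median depth was 5647 UMIs per cell in putative neurons and 12385 to 15802 in the other populations. Among the libraries, 26 cell barcodes occurred more than once, in 52 cells.

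Rxrg, the RXR with the most restricted tissue distribution, was the receptor with the steepest gradient across type I neurons. The gene lies on chromosome 1 at 167598384 to 167639623 on the plus strand (GRCm38). In type IA its level was 60.05, 49.0, 61.4 and 48.7 CPM in mice 1 to 4, with a mean of 54.8 ± 6.87. In type IB it was 14.7, 14.8, 13.6 and 13.1 CPM. In type IC it was 4.06, 4.81, 5.59 and 3.92 CPM. The 3 ranges did not overlap, and the order IA, IB, IC held in every mouse. The level in type IA was 12.1 ± 2.02 times that in type IC within the same mouse. Type II neurons had 25.6, 22.8, 41.0 and 18.2 CPM, between types IA and IB and overlapping with neither. With labels rebuilt from profiles without nuclear receptor genes, type II had 15.7 to 61.8 CPM (mean 41.4) and overlapped with both. Putative neurons spread from 8.56 to 27.3 CPM and overlapped with types II and IB. Of the 2200 Rxrg UMIs in all cells, 74.4% were in type IA cells.

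**Figure D1:**
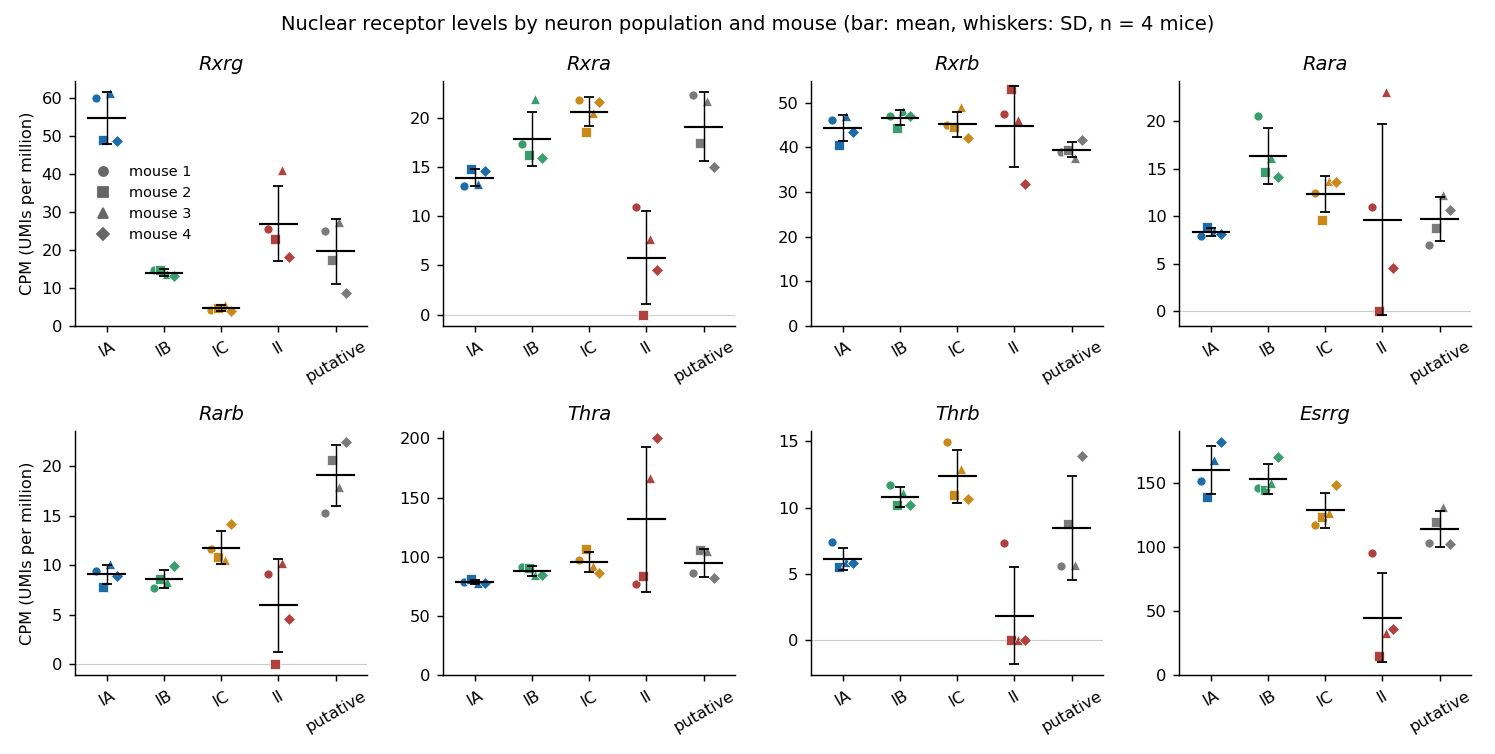
Level of each receptor in CPM (vertical axis, linear) in the 5 populations, with 1 symbol per mouse, the mean as a bar and the SD as whiskers (n = 4 mice). Rxrg went from 54.8 CPM in type IA to 4.59 CPM in type IC, Rarb was highest in putative neurons at 19.1 CPM, and Esrrg was lowest in type II at 45.0 CPM.

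Rxrg was also a larger part of the RXR pool in type IA than in the other populations as labelled. The share of Rxra, Rxrb and Rxrg UMIs that came from Rxrg was 50.4, 47.0, 50.4 and 45.6% in mice 1 to 4. Type IB had 17.9 ± 1.52% and type IC 6.51 ± 0.888%. For type II the share was 34.3 ± 6.17%, from 105 UMIs in all. The 58 type II cells with a UMI of the marker Prph held 30 Rxrg, 27 Rxrb and 2 Rxra UMIs. Rxrg was thus the largest of the 3 counts there, as in type IA, and the trait was not particular to type IA. A UMI marks the 3′ end of a molecule and does not scale with transcript length, so these shares compare captured molecules. The summed level of the 3 RXR genes was 113 ± 8.76 CPM in type IA, against 78.5 ± 3.81 (IB) and 70.4 ± 3.46 (IC).

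**Figure D2:**
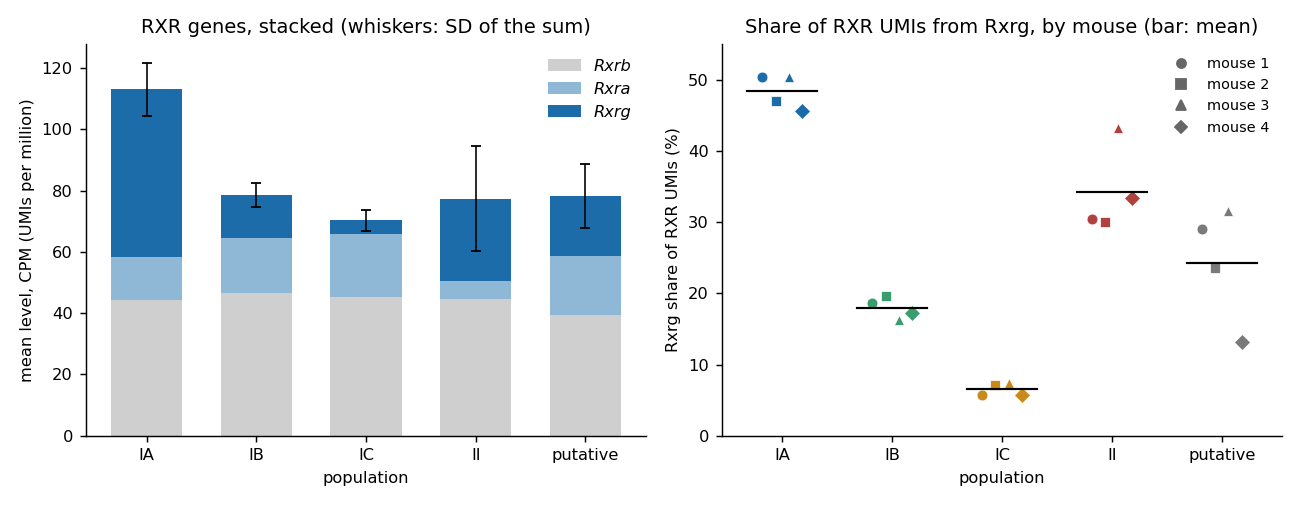
Left, mean levels of Rxrb, Rxra and Rxrg stacked for each population in CPM, with the SD of their sum as whiskers (n = 4 mice). Right, the percentage of RXR UMIs that came from Rxrg in each mouse, with the mean as a bar: type IA stood at 48.4%, type IB at 17.9% and type IC at 6.51%.

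The gradient of Rxrg was seen in the share of cells as well as in the summed level. After each cell was thinned to 4000 UMIs, 19.2 ± 1.12% of type IA cells held at least 1 Rxrg UMI. Type IB followed with 5.08 ± 1.52% and type IC with 1.76 ± 0.786%. The share was 7.80 ± 5.07% in type II and 8.01 ± 3.30% in putative neurons. Without thinning the shares were 45.4 ± 9.77% in type IA and 6.38 ± 1.45% in type IC. Thinning left out 230 of the 505 putative neurons and 3 of the 95 type II cells, as too shallow. No population in the files is known to lack Rxrg, so the share that free RNA gives was not measured; the share in type IC is an upper limit for it there.

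Within a subtype, cells with and without an Rxrg UMI were compared for the subtype markers at 4000 UMIs per cell. In type IA, Calb2, which encodes the calcium-binding protein calretinin, was at 10147 ± 324 CPM in the 423 cells with Rxrg and 9308 ± 778 CPM in the 1778 cells without. It was higher with Rxrg in 4 of 4 mice, also at 2000 and 8000 UMIs per cell. The other 3 type IA markers differed less and did not share that direction: B3gat1 was higher with Rxrg in 3 of 4 mice (263 against 256 CPM), Pcdh20 in 2 (81.7 against 89.2 CPM) and Cacna1b in 1 (15.96 against 17.6 CPM). In type IB, the type IC marker Lypd1 was at 74.8 ± 44.2 CPM in the 79 cells with Rxrg and 191 ± 33.4 CPM in those without, lower in 4 of 4 mice. At 2000 UMIs per cell, Lypd1 was lower in 3 of 4 mice. Of the other type IC markers, Pou4f1 was higher with Rxrg in 2 of 4 mice (29.5 against 28.3 CPM) and Runx1 in 3 (79.8 against 86.2 CPM on average), while Grm8 had 0 UMIs with Rxrg and 4.497 CPM without. B3gat1, a type IA marker, went the other way in type IB, at 16.2 ± 11.6 CPM with Rxrg and 31.1 ± 5.15 CPM without. With 4 mice no sign-flip test over mice can pass a threshold of 0.05, so these splits are descriptions, and Calb2, Lypd1 and B3gat1 were singled out after their values were seen.

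Rassf6 and Pcdh20 were the genes whose levels followed Rxrg most closely over the 20 sums. With each mouse centred, Pearson's r on log2 CPM was 0.960 for Rassf6 and 0.959 for Pcdh20, among 10602 genes with a mean of at least 5 CPM. Tmem108, Cdk15, Ephx4, Tanc1, B3gat1 and Sh3bgr followed, with r from 0.942 for Tmem108 to 0.882 for Sh3bgr. The points share the 4 libraries and the population labels, and the values are a description. Pcdh20 encodes a protocadherin, a cell adhesion protein, and was at 85.7 CPM in type IA, with 16.3 (IB), 5.72 (IC) and 30.9 CPM (type II) elsewhere. Cdk15 was as high in type II (47.8 CPM) as in type IA (47.3 CPM), unlike Rxrg over all type II cells.

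**Figure D3:**
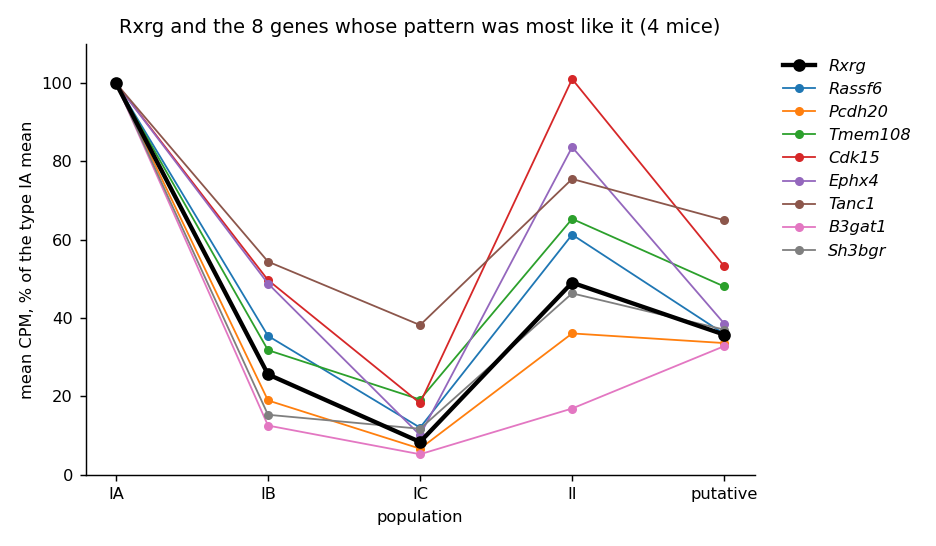
Mean level of Rxrg (black) and of the 8 genes most like it in each population, as a percentage of the gene's own mean in type IA (vertical axis; 4 mice). All 9 genes were lowest in type IC; lines join populations only to guide the eye. B3gat1, at 41.0 CPM in type II against 242 CPM in type IA, had the lowest type II level relative to type IA.

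Rxra and Rxrb, the other RXR genes, did not share the gradient of Rxrg. Rxra (chromosome 2, 27676440 to 27762957, plus strand) was lowest in type IA among the type I subtypes. Its level was 13.9 ± 0.879 CPM there, 17.8 ± 2.76 in type IB and 20.6 ± 1.499 in type IC. All 4 type IA values, 13.0 to 14.8 CPM, lay below every type IB and type IC value. Types IB and IC overlapped, with type IB higher in mouse 3 (21.9 against 20.5 CPM). Their log2 difference of −0.17 was not called (edgeR adjusted p = 0.327). In type II, Rxra was at 10.98, 0, 7.68 and 4.54 CPM in mice 1 to 4, from 10 UMIs in all, below every other population. The log2 difference of type II from type I was −1.23 ± 0.40 (SE; adjusted p = 0.0167), lower in 4 of 4 mice, and was not called without mouse 2, without mouse 3 or without mouse 4. Rxrb (chromosome 17, 34031812 to 34038399, plus strand) was flat, with population means from 39.4 to 46.6 CPM whose neighbours all overlapped.

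Differences were tested in 1 edgeR quasi-likelihood model over the 20 sums with the mouse as a term, and p-values were adjusted over all 13005 genes that passed the filter. Rxrg left aside, 4 of the other 7 receptors passed an adjusted p of 0.05 between type II and the mean of the type I subtypes, where 23.7% of all genes tested did. Between types IB and IC, 3 of the 7 passed, where 12% of all genes did. Between putative neurons and type I, 2 of the 7 passed, where 23.5% of all genes did, a share of the members near the background. In the contrast used for the choice, type IA against types IB and IC, 28.5% of all genes passed. There the differences on the log2 scale were 2.77 for Rxrg, −0.90 for Thrb, −0.72 for Rara, −0.44 for Rxra, −0.20 for Thra and 0.20 for Esrrg. Rarb at −0.13 and Rxrb at −0.04 were the smallest.

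**Figure D4:**
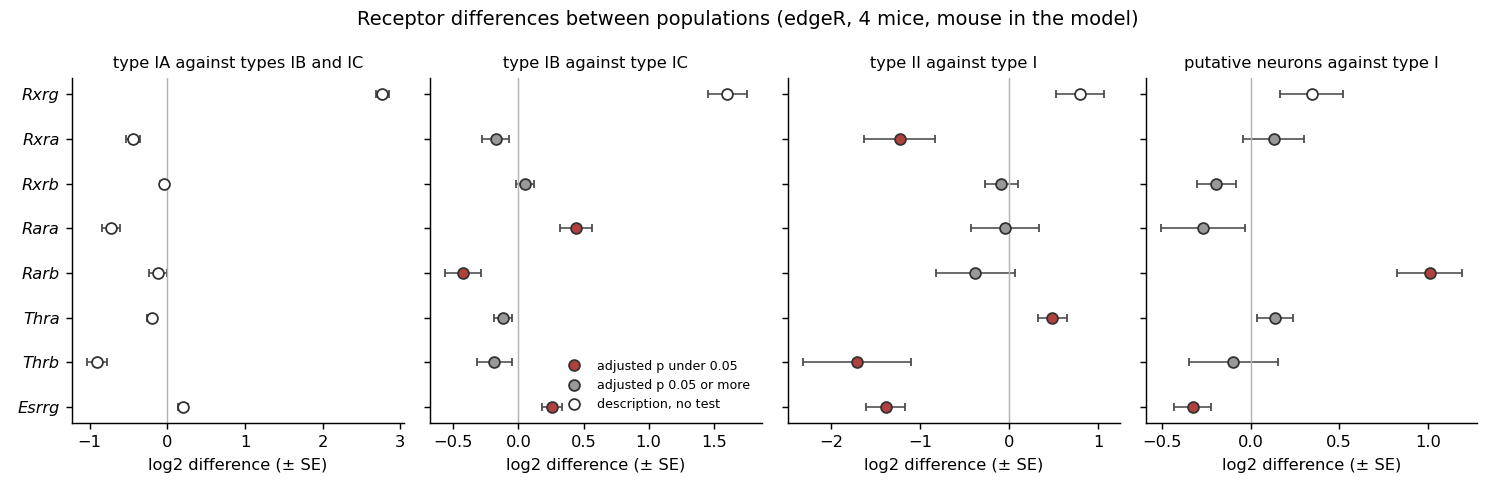
Log2 difference of each receptor (horizontal axis, with SE) in 4 comparisons of populations. Red points passed an adjusted p of 0.05, grey points did not, and open points are descriptions with no test; Rxrg was higher in type IA by 2.77 and in type IB against type IC by 1.60, and Esrrg was lower in type II by a log2 difference of −1.39.

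The RARs differed in their pattern. Rara (chromosome 11, 98927818 to 98974942, plus strand) was highest in type IB, with 20.6, 14.7, 16.1 and 14.1 CPM in mice 1 to 4. In type IC it had 12.4, 9.61, 13.7 and 13.6 CPM, all below the type IB values. In type IA it had 7.96 to 8.86 CPM, below every value of types IB and IC. Rara was higher in type IB than in type IC by a log2 difference of 0.44 ± 0.12 (SE; adjusted p = 0.00803), in 4 of 4 mice. Rarb was lower in type IB than in type IC by a log2 difference of −0.42 ± 0.14 (SE; adjusted p = 0.0281), also in 4 of 4 mice. Both calls ended with DESeq2 or with the mouse left out of the model, and the Rarb call also ended without any 1 of the mice. The Rara call ended without mouse 1 and without mouse 2.

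Rarb is both a receptor and a textbook target of retinoic acid, since the start of its shorter transcripts carries a retinoic acid response element. The gene lies on chromosome 14 at 16430839 to 16819156 on the minus strand. The 150 bases before that start site are shown because they hold the repeat that RXR and RAR dimers bind, a direct repeat of a receptor half-site spaced by 5 bases, in capitals (RefSeq, GRCm38.p6, chr14:16575477-16575626, minus strand, 5′ to 3′).
Rarb: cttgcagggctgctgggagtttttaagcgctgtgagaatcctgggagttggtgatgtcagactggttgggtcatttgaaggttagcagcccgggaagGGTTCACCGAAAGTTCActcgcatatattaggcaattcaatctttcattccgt
The repeat spans bases −53 to −37 from the start. The half-sites searched were AGGTCA with its variants, which were AGTTCA and also GGTTCA and lastly GGGTCA, on both strands, spaced by 1, 4 or 5 bases, in windows of 250 bases before to 50 bases after a start. Such repeats were rare: 0.222% of 32851 windows of mouse genes held one spaced by 1 base, 0.0822% one spaced by 4 and 0.0974% one spaced by 5. Among the 17 windows listed for 7 of the receptors, the Rarb repeat was the only match.

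Rarb was highest in putative neurons, with 15.3, 20.6, 17.9 and 22.5 CPM in mice 1 to 4. Type IC had 11.6, 10.8, 10.6 and 14.2 CPM, and no value of types IA and IB was above 10.2 CPM. All 4 putative values lay above every type I value. Rarb was higher in putative neurons than in type I by a log2 difference of 1.009 ± 0.18 (SE; adjusted p = 1.16e-05). Without cells holding 3 or more UMIs of the glial gene Fabp7 the difference was 0.96, and the call held. With labels rebuilt from profiles that left out all nuclear receptor genes, it was 0.56 and was not called. Only 41.8% of putative neurons kept their label there, against 88.1% of all cells. Rarb overlaps the 3′ end of Top2b on the opposite strand by 1793 exonic bases, and the sources used here do not say whether counting used strand. Top2b, a DNA topoisomerase gene, was at 65.7 ± 5.06 CPM in putative neurons between 74.7 and 79.1 CPM in type I, and 54.9 ± 11.6 CPM in type II; its part in the Rarb counts was not tested.

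Genes known to respond to retinoic acid were higher with Rarb in putative neurons. Of the 7 measured genes of that list, which includes Rarb, 7 were called higher and 0 lower (23.5% of all genes were called), with a median log2 difference of 1.42 against −0.01 for all genes. Rarres1 rose from between 1.96 and 2.34 CPM in type I to 9.03 ± 1.81 CPM, and Tgm2, a transglutaminase, from between 10.51 and 12.7 CPM to 29.9 ± 5.44 CPM. Crabp2, which carries retinoic acid to the nucleus, rose by 1.46 on the log2 scale. Of 14 measured genes that supply or clear retinoids, 9 were higher and 1 lower (71.4% called against 23.5% of all genes). Dhrs3, Stra6 and Crabp2 stand in both lists and were counted as higher in each, so the 2 counts are not independent. Aldh1a3, which makes retinoic acid from retinal, was the lower gene, at 386 ± 44.8 CPM against 427 to 530 CPM. Putative neurons also had higher summed glial, supporting cell, fibroblast and endothelial markers than type I, and the part of those cells' RNA in these calls was not tested beyond Fabp7. Without the Fabp7 cells the counts were 7 of 7 and 7 of 15 higher. With rebuilt labels they were 5 of 7 and 5 of 13.

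In type II neurons Fabp5 led the retinoid supply genes. Of the same 14 supply and clearance genes, 5 were higher and 1 lower than in type I, or 42.9% called against 23.7% of all genes. Fabp5, a fatty acid binding protein that can pass retinoic acid to other receptors, was at 108 ± 40.5 CPM in type II and 22.7 to 27.0 CPM in type I (log2 difference 1.85, adjusted p = 6.84e-14). Aldh1a3 fell by 1.27 on the log2 scale, to 178 ± 94.4 CPM. The count of higher genes was 2 of 15 without the Fabp7 cells and 1 of 15 without mouse 1. Between types IB and IC, Aldh1a3 was the only 1 of the 14 genes called, lower in type IB by a log2 difference of −0.30.

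The thyroid hormone receptors were each lowest in type IA among the type I subtypes. Thrb (chromosome 14, 17660261 to 18038090, plus strand) had 7.38, 5.51, 5.90 and 5.83 CPM in type IA. It had 10.2 to 11.7 CPM in type IB and 10.6 to 15.0 CPM in type IC, all above type IA. Its level in type IC was 2.01 ± 0.150 times that in type IA. Types IB and IC overlapped, and their log2 difference of −0.18 was not called (adjusted p = 0.453). Thra (chromosome 11, 98740638 to 98769006, plus strand) had 78.0 to 81.7 CPM in type IA, against 84.3 to 91.8 (IB) and 86.7 to 106 (IC), a ratio of 1.21 ± 0.0812 from type IC to type IA. Thra shares 263 exonic bases at its 3′ end with Nr1d1 on the opposite strand. Nr1d1, a clock repressor, was at 11.3 ± 1.37 CPM in type IA and 14.6 ± 2.08 CPM in type IC; its part in the Thra counts was not tested.

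In type II neurons the fitted differences of the thyroid receptors had opposite signs, and neither call held throughout. Thrb had 4 UMIs, all in mouse 1, where its level was 7.32 CPM, within the type IA range of 5.51 to 7.38 CPM. Mice 2, 3 and 4 had 0, in sums of 131668, 390376 and 220075 UMIs. The fitted log2 difference from type I was −1.71 ± 0.60 (SE; adjusted p = 0.0280), and the call ended in 6 of the 12 alternatives, among them the fits without mouse 2, mouse 3 or mouse 4. Thra had 76.8, 83.5, 167 and 200 CPM in type II, so mice 3 and 4 lay above every type I value and mice 1 and 2 did not. Its log2 difference was 0.48 ± 0.16 (SE; adjusted p = 0.0229), with that direction in 2 of 4 mice. It was 0.26 without mouse 3, 0.26 without mouse 4 and 0.10 without the Fabp7 cells, and was not called in any of the 3.

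Genes of thyroid hormone transport and metabolism were set beside the receptors. Slc7a8, an amino acid transporter that also carries thyroid hormones, was graded in the same order as Rxrg, at 19.8 ± 2.84 CPM (IA), 10.6 ± 2.31 (IB) and 5.59 ± 1.28 (IC). It was highest in type II at 65.6 ± 21.2 CPM, a log2 difference of 2.55 from type I (adjusted p = 3.78e-14). Of 9 measured transport and metabolism genes, 3 were called higher and 0 lower in type II, or 33.3% against 23.7% of all genes. In putative neurons 5 were higher and 0 lower (55.6% against 23.5%), among them the transporters Slco1c1 (33.4 ± 5.46 CPM against 7.01 to 7.58 CPM in type I) and Slco1a4. Without the Fabp7 cells, 3 of the 9 were higher there. Of 5 measured genes that respond to thyroid hormone, edgeR called 0 in type II (0 at an unadjusted p under 0.05, and 0 called by DESeq2). Of the 5, 2 were higher in putative neurons (40% against 23.5% of all genes), Klf9 by 0.68 and Stard4 by 0.48 on the log2 scale. Me1, the cytosolic malic enzyme, was higher in type IB than in type IC by 0.24, with a mean of 74.5 ± 2.78 CPM (IA), 59.97 ± 3.01 (IB) and 51.3 ± 5.01 (IC).

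Esrrg was the receptor with the largest difference in type II neurons that held throughout. The gene spans chromosome 1 from 187608791 to 188214885 on the plus strand. Type IA had 152, 139, 168 and 182 CPM in mice 1 to 4. Type IB had 146, 145, 150.4 and 170.2 CPM. Type IC had 117, 124, 126 and 149 CPM. Within each mouse the order was IA or IB above IC. Putative neurons had 103 to 131 CPM. Type II neurons had 95.1, 15.2, 33.3 and 36.4 CPM, all below every other population, with mouse 1 far above the others. The log2 difference of type II from type I was −1.39 ± 0.22 (SE; adjusted p = 1.89e-05), lower in 4 of 4 mice and called under all 12 alternatives. Without mouse 1 it was −2.36.

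Smaller differences of Esrrg were less steady. Esrrg was higher in type IB than in type IC by a log2 difference of 0.26 ± 0.08 (SE; adjusted p = 0.0220). It was lower in putative neurons than in type I by −0.33 ± 0.11 (SE; adjusted p = 0.0262). Each had its direction in 4 of 4 mice. The first was not called without mouse 3, and the second not without mouse 4 or without the Fabp7 cells. Both ended with DESeq2, with the mouse left out of the model, and in the deeper cells of each population. Counted per cell instead of in CPM, Esrrg was as high in type IB (2.04 UMIs per cell) as in type IA (2.01), and 1.81 in type IC.

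Genes that work with ERRs or are known ERR targets were lower along with Esrrg in type II. Of 16 measured, 10 were called lower and 1 higher (68.8% called against 23.7% of all genes), with a median log2 difference of −0.52 against −0.05 for all genes. Cox5a, a subunit of cytochrome c oxidase, fell by 1.24 on the log2 scale, from between 2880 and 3022 CPM in type I to 1265 ± 407 CPM. Ppargc1a, the coactivator PGC-1 alpha, fell by 0.84, and Cycs, cytochrome c, by 0.71. Without the Fabp7 cells 7 were lower and 0 higher. In putative neurons 9 were lower and 1 higher (62.5% called against 23.5%); the higher gene was Pdk4, an inhibitor of pyruvate oxidation, at 14.7 ± 4.09 CPM against 4.60 to 5.12 CPM. The 9 lower calls in putative neurons became 2 with the mouse left out of the model, 3 without mouse 2 and 5 without mouse 4. In type IB against type IC the only call of the 16 was Ppargc1a, higher by 0.22, in the same direction as Esrrg. Transcripts outside the ERR list were lower too. The 5 listed type I markers summed to 3624 ± 1380 CPM in type II and 5557 ± 645 CPM in putative neurons. Each type I subtype had 6670 to 7360 CPM. The part of a lower level of neuronal RNA in the ERR calls was not tested.

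Type II cells were not uniform in these receptors. Of the 95 cells, 58 held a UMI of Prph, which encodes the type II neurofilament peripherin, and 37 did not. The 58 cells held 601917 UMIs and the 37 cells 686881, so those without Prph had more UMIs per cell. The cells were not thinned for this split. Before the split, the type II sums of mice 2 and 4 were 131668 and 220075 UMIs, so a level of 0 in those mice rests on few UMIs. Rxrg was at 68.9, 36.7, 60.3 and 25.1 CPM in the cells with Prph of mice 1 to 4, and at 9.96, 0, 17.2 and 0 CPM in those without. Every mouse was higher with Prph, mice 2 and 4 against a level of 0, and 30 of the 37 Rxrg UMIs lay in those cells. Esrrg was the reverse, at 34.5, 0, 23.2 and 31.4 CPM with Prph and 117, 40.0, 45.8 and 49.5 CPM without. Thra pooled over mice was at 164 CPM with Prph and 91.7 CPM without. Pooled over mice, the cells with Prph held 0 Thrb UMIs of 601917, which allows up to 4.98 CPM by counting error alone. The mean was 9.77 CPM over the type I subtypes and 6.16 CPM in type IA. Spread between mice is not part of that limit, so no fold is drawn from it.

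**Figure D5:**
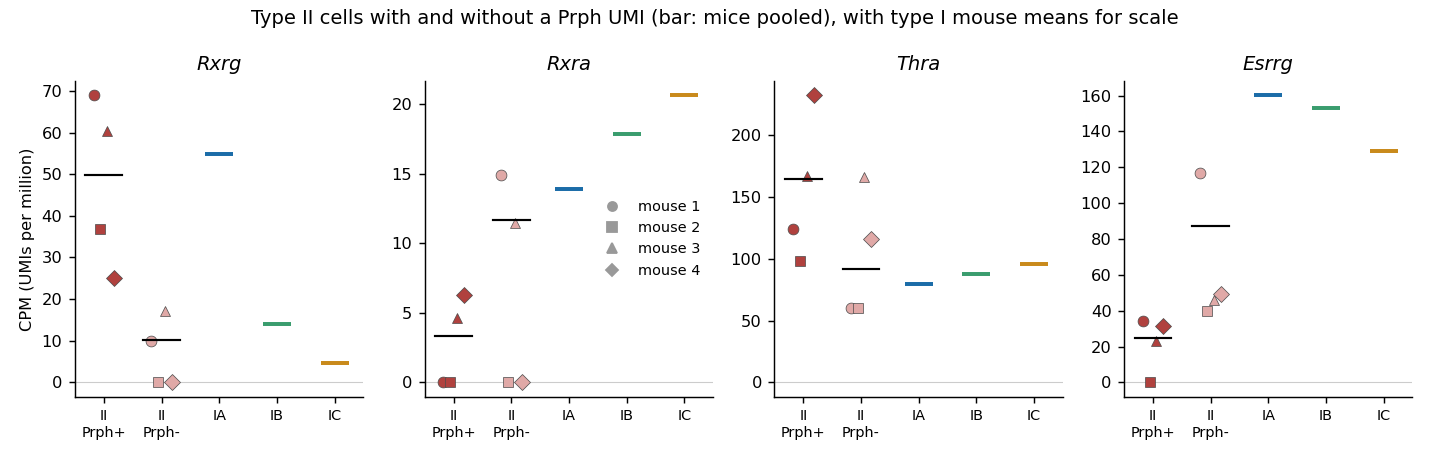
Levels of 4 receptors in CPM (vertical axes, linear) in type II cells with and without a Prph UMI, with 1 symbol per mouse and the pooled level as a bar; coloured bars give the type I means. Rxrg pooled to 49.8 CPM with Prph and 10.2 CPM without, and Esrrg to 24.9 and 87.4 CPM.

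With the cells lacking Prph left out, the type II differences were larger for Esrrg, Rxra and Thra. The log2 difference from type I was −2.71 for Esrrg (adjusted p = 2.74e-18), −2.52 for Rxra (adjusted p = 0.00401) and 0.78 for Thra (adjusted p = 3.61e-05), and 1.54 for Rxrg as a description. For Rxra these cells held 2 UMIs. Leaving out cells with 3 or more Fabp7 UMIs kept 57 type II cells and dropped the sum of mouse 4, and Esrrg at −1.01 was then the only receptor called. Rxra was then at −0.75 and Rxrg at 0.50.

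A wider list held 48 nuclear receptor genes, of which 35 were tested, the 8 among them. In type II, 3 were called higher and 5 lower. In type IB against type IC, 5 were higher and 3 lower, and in putative neurons 9 higher and 3 lower. The calls in type II included Rxrg, Rxra, Thra, Thrb and Esrrg. Those in type IB against type IC included Rxrg, Rara, Rarb and Esrrg, and those in putative neurons Rarb and Esrrg. Rxrg was picked on measured values, so counts and shares that include it are descriptions. Over all 35 genes, 22.9% were called in type II, near the 23.7% of all genes tested. The share was 22.9% in type IB against type IC, where 12% of all genes were called, and 34.3% in putative neurons, against 23.5%. Shares without the 8 genes were not computed. Nr2f1 and Nr2f2, orphan receptors of the COUP-TF group, were higher in putative neurons by 1.23 and 1.39 on the log2 scale. Esr2, estrogen receptor beta, was lower in type IB than in type IC by −1.91, at 0.691 ± 0.210 against 2.71 ± 0.704 CPM. Of 18 coregulator genes, 5 were higher and 0 lower in type II, or 27.8% against 23.7% of all genes. They included Tbl1x, a part of the NCoR corepressor complex, at 47.4 ± 17.9 CPM against 15.6 to 18.2 CPM, and Ncoa7, at 113 ± 22.4 CPM against 52.5 to 58.7 CPM. In type IB against type IC, edgeR called 0 of the 18, with 5 at an unadjusted p under 0.05 and 0 called by DESeq2.

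The other receptors with enough range were also set against all genes. The genes most like Rxra over the 20 sums were Sv2c, Asah2 and Fhod3, with r from 0.980 to 0.985. Those most like Esrrg were Ttc39b, Dync1i1 and Cluh (r from 0.984 to 0.986), all lowest in type II. Those most like Rarb were Tgfbr3, Abat and Gxylt1 (r from 0.966 to 0.974), all highest in putative neurons. Those most like Thrb were Sowahb, Fbxo34 and March9 (r from 0.964 to 0.975). In type II, Thrb had 0 UMIs in mice 2, 3 and 4, and Rxra and Rarb had 0 in mouse 2. The type II mean was 1.83 CPM for both Thrb and Sowahb, and 5.98 CPM for both Rarb and Gxylt1. Counts of 0 in such small sums can set much of r, and r without type II was not computed.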

How the data were processed

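Raw UMI counts per gene and cell, deposited by the authors as 1 table for each of the 4 mice, were used with the authors' deposited cell annotation; no clustering or doublet removal was done here. Per the submitters' processing notes, Cell Ranger 2.0.1, Seurat 1.4 and mm10 were used; the sources used here do not state the cell filters. UMIs were summed per mouse and population (at least 10 cells) and tested in R 4.3.3 with edgeR 4.0.16 (low-count filter filterByExpr, TMM, robust quasi-likelihood, Benjamini-Hochberg over 13005 genes), with population and mouse in the model, because the 5 populations of a mouse come from the same animal. Counts of calls among the 8 receptors leave out Rxrg, while counts over the wider list of nuclear receptor genes include it. The script was tested on simulated data. DESeq2 1.42.0 and the other alternatives are given in the closing section. The libraries held 15151343 to 27309045 UMIs. The members and gene lists were chosen with earlier results of these data known. Named genes were the 8 receptors, up to 3 genes per list and comparison (largest log2 difference among calls of 1 direction in 4 mice whose higher population held 20 or more UMIs), and the genes most like each receptor. A few marker and overlapping genes were named after their values were seen. Some genes that the rule would name are not reported here. Positions are from GENCODE M21 (GRCm38), and promoter windows from RefSeq.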

Additional observations from a re-analysis of the deposited data

Results flagged for a closer look

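Of 98 groups of 4 mice checked, 5 had a mouse that stood apart from the other 3 by a gap above Dixon's critical value; chance flags about 1 in 20. In type II, the Thrb level was 7.32 CPM in mouse 1 and 0 in the others, from 4 UMIs. The same UMIs put Thrb at 8.70% and Thra at 91.3% of thyroid receptor UMIs in mouse 1, where the others had 0 and 100%. In mouse 4, Rxrb made up 40.7% of RXR UMIs in type IA, against 38.6 to 38.8% in the other mice. In mouse 4, Esrrg made up 65.1% of the UMIs of the 3 ERR genes in type IB, against 59.1 to 59.6% in the other mice.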

How the results depend on the processing

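Each of 21 tested log2 differences (7 receptors without Rxrg, in 3 comparisons) was recomputed under 12 alternatives. Of these 252 values, 203 kept their direction and side of the threshold, 36 kept their direction and lost the call, and 13 changed sign. In type II, 4 of 7 receptors were called; the count was 1 in cells at or above the median depth (which dropped the sum of mouse 2) and 1 without the Fabp7 cells, and it was 4, 2, 1 and 1 without mouse 1, 2, 3 and 4. In type IB against type IC, 3 were called with edgeR, 0 with DESeq2 and 0 with no replicate block (2 of the 7 at an unadjusted p under 0.05 in each), 1 in the deeper cells, 1 without mouse 1, 2 or 3 and 2 without mouse 4. In putative neurons 2 were called, and 1 with DESeq2, in the deeper cells, with rebuilt labels, with no replicate block and without the Fabp7 cells; without single mice the count was 1 (mouse 4) to 2. With no replicate block, the count in type II stayed at 4. Over all genes, 3709 passed the threshold in type IA against types IB and IC, and 2071 with no replicate block. The values of Rxrg and of the type IA contrast are descriptions. The sign changes of the other receptors concerned values that were not called. Rara in type II, −0.05, was 0.0010 with DESeq2, 0.44 in the deeper cells, 0.38 without the Fabp7 cells, and between −0.72 (without mouse 3) and 0.11 over the mice left out, positive at 0.09 without mouse 1, 0.11 without mouse 2 and 0.11 without mouse 4. Rxrb in type II was 0.040 without the Fabp7 cells. In putative neurons with rebuilt labels, Rxrg was −0.77, Rxra −0.19, Rxrb 0.023, Thra −0.032 and Thrb 0.22; Thrb ran from −0.40 (without mouse 4) to 0.074 (without mouse 3) over the mice left out and was 0.056 without mouse 1. The difference in the share of cells with Rxrb between types IB and IA was −0.0761 percentage points at 8000 UMIs per cell. The cause was not tested. The list counts under these settings were added after the data were seen. With 95 type II cells, receptors under about 10 CPM rest there on 16 UMIs or fewer.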
